A study of Mus musculus with 13 samples.

Results

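The genes of the mouse histone clusters were read on 13 single-colour Affymetrix arrays of liver RNA. Members were all genes whose current or older symbol starts with Hist1h, Hist2h, Hist3h or Hist4h. The RefSeq table of mouse genes holds 70 of them, and 31 had a probe set listed with their symbol alone. Of these, 23 passed a filter that removed genes with a mean in the lowest 25% and entered the tests, beside 14953 tested genes in all. The tested members were 5 H1 linker histones (of 6 in the table), 3 H2A genes (of 20), 9 H2B genes (of 19), 1 H3 gene (of 12) and 5 H4 genes (of 13). By cluster, 23 of the 31 genes lie in the Hist1 cluster, 4 in Hist2, 3 in Hist3 and 1 in Hist4. Histone genes are near copies of each other, so a reading named for a single gene can hold signal of its relatives and is uncertain to that extent. A further 24 probe sets are listed with several histone cluster genes and no other gene, and together with the 31 they cover 55 of the 70 genes. These shared probe sets name no gene and are described by histone class, in an analysis added after the data were seen.

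Histones package DNA into nucleosomes, each a core of H2A, H2B, H3 and H4, with H1 bound to the linker DNA. Most genes of the clusters are replication-dependent: their transcripts are made in S phase from promoters served by NPAT, end in a stem-loop in place of a poly(A) tail, bind the stem-loop binding protein SLBP, and are degraded when DNA synthesis stops. In the liver of young, still growing mice some hepatocytes and other cells are in cycle, and DNA damage can halt DNA synthesis.

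The mice were 14 days old. Untreated wild type (2 arrays) carried floxed Rb1 without Cre and, per the series' design text, received saline. The other 4 groups received 20 mg/kg of diethylnitrosamine (DEN), a carcinogen that liver enzymes turn into a DNA-alkylating agent, 24 h before the livers were taken. They were wild type with DEN (floxed Rb1 without Cre, 2 arrays), heterozygous with DEN (1 functional and 1 floxed allele plus Cre, 2 arrays, with the tag LOH in another label field), N750F with DEN (5 arrays) and knockout-labelled with DEN (floxed Rb1 with Cre, 2 arrays). Rb1 encodes the retinoblastoma protein, which holds back E2F-driven entry into S phase, and N750F alters its LXCXE-binding cleft. The albumin promoter drove Cre, so recombination is directed to hepatocytes and other liver cells keep Rb1. The second allele and the Cre status of the N750F mice are not named with the group, and comparisons of heterozygous or knockout-labelled with wild type livers also change the presence of Cre. Without untreated mice of the other genotypes, a genotype difference present before DEN cannot be told apart from a different response to it. Arrays are numbered as in the labels, and nothing says that they came from separate litters, so p-values measure only the spread between these arrays.

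Levels are log2 of the quantile-normalized intensity plus 16, and a level near 4.5 is that of a gene without signal: Y-linked genes lay between 4.44 and 4.61 in 7 arrays and between 8.91 and 9.45 in the other 6. Wild type DEN arrays 3 and 4 were both low in Y-linked genes, whereas both heterozygous and both knockout-labelled arrays were high. Untreated array 1 and N750F array 1 were also high, and untreated array 2 and N750F arrays 2 to 5 were low. In comparisons of heterozygous or knockout-labelled with wild type DEN liver, genotype and Y-linked level therefore cannot be told apart. Arrays 4 of wild type, heterozygous and N750F and array 5 of N750F formed batch 2, named by the run in the raw array names, and every test had batch as a term. Rb1 itself read 6.57 and 7.92 in the knockout-labelled arrays, 7.15 and 7.27 in the untreated and 8.01 and 8.04 in wild type with DEN, and so did not settle the label. The position of its probes relative to the floxed exon is not given in the sources used here. All 12 hepatocyte markers of the list were tested, and their mean lay between 11.24 and 11.67 in every array. Skeletal muscle markers stood apart in knockout-labelled array 2 (mean level 7.94, against 6.49 to 6.88 elsewhere).

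The promoters of 4 genes are printed as examples. H4c4 and H4f16 were highest in untreated liver, and H1f2 and H1f5 were the linker histones with the lowest log2 changes after DEN in wild type. H4f16 and H1f2 were not called in any comparison, and H4c14, which was called, had no matched promoter. Each is the 150 bases before the annotated start, 5′ to 3′, from RefSeq on GRCm38.p6. Capitals mark matches on either strand, overlapping ones joined, to GGTCCG (the core of the H4 box) and TATAA in the H4 genes, and to AAACACA (the H1 box), CCAAT and TATAA in the H1 genes.
H4c4, chr13:23581418-23581567, plus strand: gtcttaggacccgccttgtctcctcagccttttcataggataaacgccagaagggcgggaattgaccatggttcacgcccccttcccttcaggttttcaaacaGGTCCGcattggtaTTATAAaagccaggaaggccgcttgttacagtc
H4f16, chr6:136804432-136804581, minus strand: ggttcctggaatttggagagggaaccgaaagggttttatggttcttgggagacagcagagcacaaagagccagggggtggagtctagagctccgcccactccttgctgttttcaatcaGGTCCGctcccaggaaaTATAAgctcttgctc
H1f2, chr13:23738657-23738806, plus strand: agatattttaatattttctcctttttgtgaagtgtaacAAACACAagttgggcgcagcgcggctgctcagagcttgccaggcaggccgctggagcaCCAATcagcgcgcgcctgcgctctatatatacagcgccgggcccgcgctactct
H1f5, chr13:21780626-21780775, minus strand: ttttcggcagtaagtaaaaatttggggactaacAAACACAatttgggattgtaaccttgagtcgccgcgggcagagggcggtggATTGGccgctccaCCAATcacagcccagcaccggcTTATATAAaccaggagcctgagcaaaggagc

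In H4c4 the H4 box match begins 47 bases before the start, and in H4f16 it begins 32 bases before it. The H1 box match lies farther out, 112 bases before the start in H1f2 and 117 in H1f5. Promoters were matched for 26 of the 31 members. H2bc21, H2bc4, H2bu1-ps, H3c7 and H4c14 were not matched. Over the 250 bases before the start, both strands, GGTCCG was present in 9 of 12 H4 promoters (75.0%) and in 6.72% of 32851 promoters of the table. AAACACA was present in 5 of 6 H1 promoters (83.3%), against 6.25% of all. The octamer ATTTGCAT was present in 7 of 17 H2B promoters (41.2%) and 7 of 18 H2A promoters (38.9%), against 1.6% of all, and divergent H2A and H2B neighbours can share such a window. CCAAT was present in all 6 H1, all 18 H2A and all 17 H2B promoters, in 8 of 10 H3 and in 3 of 12 H4 promoters, against 33.8% of all. A match is a description of letters and not of binding.

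The first comparison asked how wild type liver responded to DEN. The calls after it lay among H4 genes. Of the 23 tested members 2 fell and none rose, both of them H4 genes, while 0.689% of all tested genes were called in this comparison and 0.388% fell. The median log2 change over the members was -0.70, with 18 of 23 below 0, beside a median of -0.02 over all tested genes, and 10 members had an unadjusted p under 0.05.

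H4c4 (formerly Hist1h4d, probe set 10404051), a gene of the large cluster, read 9.66 and 8.81 untreated and 7.54 and 7.88 in wild type with DEN. It read 7.69 and 7.50 in the heterozygous, 7.64, 7.82, 7.58, 8.29 and 8.23 in the N750F and 7.39 and 8.20 in the knockout-labelled arrays. Both untreated arrays were above all 11 DEN arrays, and the DEN groups overlapped each other. The log2 change in wild type was -1.70 ± 0.35 (SE, limma adjusted p = 0.0439).

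H4c14 (formerly Hist2h4, probe set 10500333), from the Hist2 cluster, encodes the same H4 protein. It read 8.73 and 7.80 in untreated liver, 6.48 and 7.23 in wild type with DEN, and 6.88 and 6.77 in heterozygous liver. The N750F arrays read 6.55, 6.98, 7.14, 7.45 and 7.29, and the knockout-labelled arrays 7.72 and 7.88. The knockout-labelled arrays were thus above every other DEN array, and untreated array 2 lay between them. The log2 change of H4c14 with DEN in wild type was -1.61 ± 0.34 (SE, limma adjusted p = 0.0487).

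Both calls lay close to the threshold. Without untreated array 1 the change of H4c4 was -1.28 (limma adjusted p = 0.454) and that of H4c14 was -1.15 (limma adjusted p = 0.492). Both calls were also lost without wild type DEN array 3 or 4, without either heterozygous array and without any of the 5 N750F arrays. They were kept without untreated array 2 or either knockout-labelled array. Other settings ended them too, among them the fit without quantile normalization (limma adjusted p = 0.0974 for both) and the fit that held the Y-linked level too (limma adjusted p = 0.105 and 0.108). Within batch 1 alone, 1 DEN array against 2 untreated, the differences were -1.69 for H4c4 and -1.78 for H4c14.

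H4f16 (formerly Hist4h4), which sits alone as the Hist4 gene, was also highest in untreated liver, without a call. It read 7.74 and 7.52 in untreated liver, 6.28 and 6.41 in wild type with DEN, and 6.47 and 7.14 in heterozygous liver. The N750F arrays read 6.13, 6.52, 6.99, 6.92 and 6.99, and the knockout-labelled arrays 7.13 and 6.03. Again both untreated arrays were above all others, and the log2 change in wild type was -1.48 ± 0.37 (SE, limma adjusted p = 0.0865). H4c9 read 8.69 and 8.43 untreated and 8.43 and 8.61 in wild type with DEN, so these arrays overlapped. Of H4c9 the heterozygous arrays read 8.00 and 7.56, the N750F arrays 7.81, 7.86, 7.69, 8.77 and 8.29 and the knockout-labelled arrays 8.10 and 8.37. The H4 genes with their own probe sets therefore did not share a single pattern. H4c3 lay between 6.52 and 7.60 in all arrays.

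Probe sets shared by several H4 genes gave a larger difference. The 5 tested shared H4 probe sets are each listed with 11 genes, correlate at 0.997 or above and differ by at most 0.322 in any array, so they are treated as 1 reading. That reading, the mean of the 5, was 10.56 and 10.22 in untreated liver, 7.98 and 6.70 in wild type with DEN and 8.53 and 8.10 in heterozygous liver. It was 8.50, 8.76, 8.87, 9.08 and 9.02 in the N750F and 9.71 and 9.96 in the knockout-labelled arrays. Untreated arrays were highest, knockout-labelled arrays next and wild type DEN arrays lowest, each without overlap with another group, while N750F array 1 lay just below heterozygous array 3. All 5 sets fell with DEN in wild type, by -2.99 to -2.93 on the log2 scale with limma adjusted p between 0.00427 and 0.00598, where 0.315% of all probe sets were called. Without untreated array 1 none of the shared sets was called.

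Shared H3 probe sets pointed the same way with smaller changes. The 9 tested sets, all listed with the same 12 genes, had a median log2 change of -1.44 with DEN in wild type (range -1.74 to -1.07) and none was called. The H3 set with the strongest relation to mitosis genes, described further on, read 8.38 and 7.13 untreated, 6.23 and 5.70 in wild type with DEN, and 6.53 and 5.91 in heterozygous liver. Its N750F arrays read 7.62, 7.42, 7.70, 7.55 and 7.76, and its knockout-labelled arrays 8.44 and 7.45. Here N750F was above every wild type and heterozygous DEN array, and untreated, N750F and knockout-labelled arrays overlapped. H3c4, the single H3 gene tested by its own probe set, read 8.48 and 8.28 untreated, 7.19 and 8.20 in wild type, and 7.36 and 6.82 in heterozygous liver. In N750F liver H3c4 read 7.74, 8.00, 7.77, 6.94 and 7.94, and in knockout-labelled liver 8.15 and 8.08. Untreated H3c4 levels were above all DEN arrays, but the change in wild type was -0.63 on the log2 scale and was not called.

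**Figure D1:**
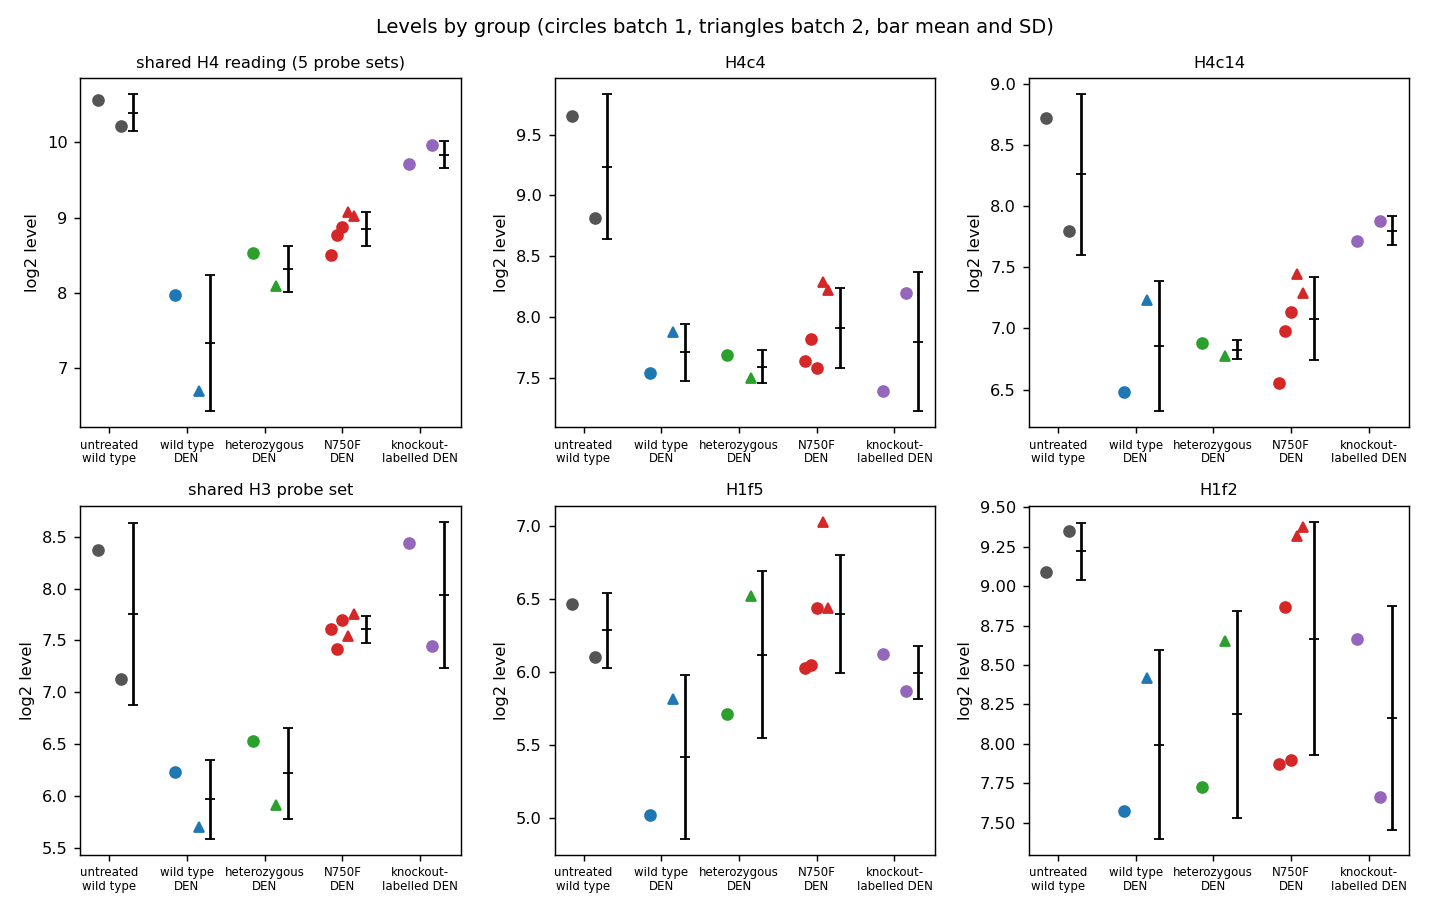
Log2 level (vertical axis) of 4 histone genes, the shared H4 reading and 1 shared H3 probe set in each array of the 5 groups (horizontal axis). Points are arrays (circles batch 1, triangles batch 2) and bars give mean and SD. The shared H4 reading lies above 10 in both untreated arrays and below 8 in both wild type DEN arrays.

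Among all tested members, both untreated arrays were above all 11 DEN arrays for 3 of 23 (H3c4, H4c4 and H4f16), where 4.77% of all tested genes did so. With the dim H4c6 the number was 4 of 31. No member had both untreated arrays below all DEN arrays, which 2.94% of genes showed. Of the 16 tested shared probe sets 6 had untreated above all DEN arrays, 5 of them the single H4 reading, against 4.12% of probe sets.

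Linker histones also read lower in wild type after DEN, without reaching the threshold. H1f2 (formerly Hist1h1c, probe set 10404059), an H1 variant that is also made outside S phase, read 9.09 and 9.35 untreated and 7.57 and 8.42 in wild type with DEN. In the other DEN groups H1f2 read 7.72 and 8.65 (heterozygous), 7.87, 8.87, 7.90, 9.32 and 9.38 (N750F), and 8.67 and 7.66 (knockout-labelled). In each genotype with arrays in both batches the batch 2 arrays were the higher ones, and N750F arrays 4 and 5 reached the untreated levels. The log2 change of H1f2 was -1.74 ± 0.38 (SE, limma adjusted p = 0.0571). H1f6, the testis linker histone, read 6.75 and 6.89 untreated and 6.38 and 4.80 in wild type with DEN, the last of these near the level of no signal. H1f6 read 6.25 and 6.77 in heterozygous, 6.65, 6.39, 6.23, 6.78 and 6.26 in N750F and 5.82 and 6.80 in knockout-labelled liver. H1f3 moved the other way, with 5.95 and 5.59 untreated against 6.65 and 6.07 in wild type with DEN, and it was not called. H1f3 read 6.06 and 6.06 in heterozygous, 6.51, 6.18, 5.98, 6.82 and 6.02 in N750F and 6.51 and 5.89 in knockout-labelled liver. Both untreated arrays were below every wild type, heterozygous and N750F DEN array, and knockout-labelled array 2 lay between them. The heterozygous arrays were just below the wild type DEN arrays, and the other DEN groups overlapped.

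The H2A and H2B genes, whose products pair in the nucleosome, gave no call with DEN in wild type. H2aw (formerly Hist3h2a) read 6.48 and 6.86 untreated and 6.32 and 5.91 in wild type with DEN. It read 6.23 and 6.99 in heterozygous, 6.07, 6.44, 7.16, 7.92 and 7.04 in N750F and 6.62 and 6.44 in knockout-labelled liver. The wild type DEN arrays were below the untreated ones, and the heterozygous and N750F arrays overlapped both. H2ac15 read 6.53 and 6.92 untreated, 5.73 and 6.29 in wild type and 5.78 and 7.38 in heterozygous liver, and in N750F and knockout-labelled liver it lay between 6.41 and 7.10. H2ac1, known from testis, stood at 7.87 in untreated array 2 but at 6.18 in untreated array 1. It was 5.63 and 5.35 in wild type, 5.55 and 5.50 in heterozygous, 6.10, 5.99, 6.61, 5.94 and 6.06 in N750F and 6.60 and 7.05 in knockout-labelled liver. For this gene the wild type and heterozygous DEN arrays were below all others.

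H2bc21 (formerly Hist2h2be), known for polyadenylated transcripts outside S phase, was the member with the highest change above 0. It read 8.31 and 8.35 untreated, 9.14 and 10.42 in wild type and 8.92 and 10.51 in heterozygous liver with DEN. It read 9.90, 9.35, 9.21, 10.14 and 10.40 in N750F and 9.49 and 8.23 in knockout-labelled liver. All DEN arrays except knockout-labelled array 2 were above the untreated ones. The log2 change in wild type was 0.91, which was not called, and in N750F against untreated it was 1.04 ± 0.33 (SE, limma adjusted p = 0.0784). H2bc4 read 9.92 and 8.77 untreated, 8.33 and 10.39 in wild type, 8.43 and 9.79 in heterozygous, 8.30, 9.26, 8.33, 9.83 and 9.74 in N750F and 8.49 and 8.05 in knockout-labelled liver. In wild type, heterozygous and N750F liver the batch 2 arrays were again the higher ones, and the genotype groups overlapped. H2bc9 lay between 6.95 and 7.98 in all arrays.

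Some members differed between batches. In the fit, 6 of the 23 members were higher in batch 2 and none lower, where 14.6% of all tested genes were called for batch and 5.86% were higher in batch 2. Of the 16 tested shared probe sets 1 was higher and none lower, against 6.57% of probe sets higher. The 6 members were H2bc4 (1.41 on the log2 scale), H2bc21 (1.08), H1f2 (1.02), H2bc14 (0.85), H2bc22 (0.78) and H1f5 (0.67). Of the 5 members known for polyadenylated transcripts (H1f2, H2bc4, H2bc21, H2aw and H4f16) the mean level was 8.31 and 8.17 untreated. It was 7.53 in batch 1 and 8.31 in batch 2 for wild type DEN, and 7.56 and 8.62 for heterozygous. The labels name WT-Ovation Pico amplification without its primers, and how well transcripts without a poly(A) tail were read was not tested.

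**Figure D2:**
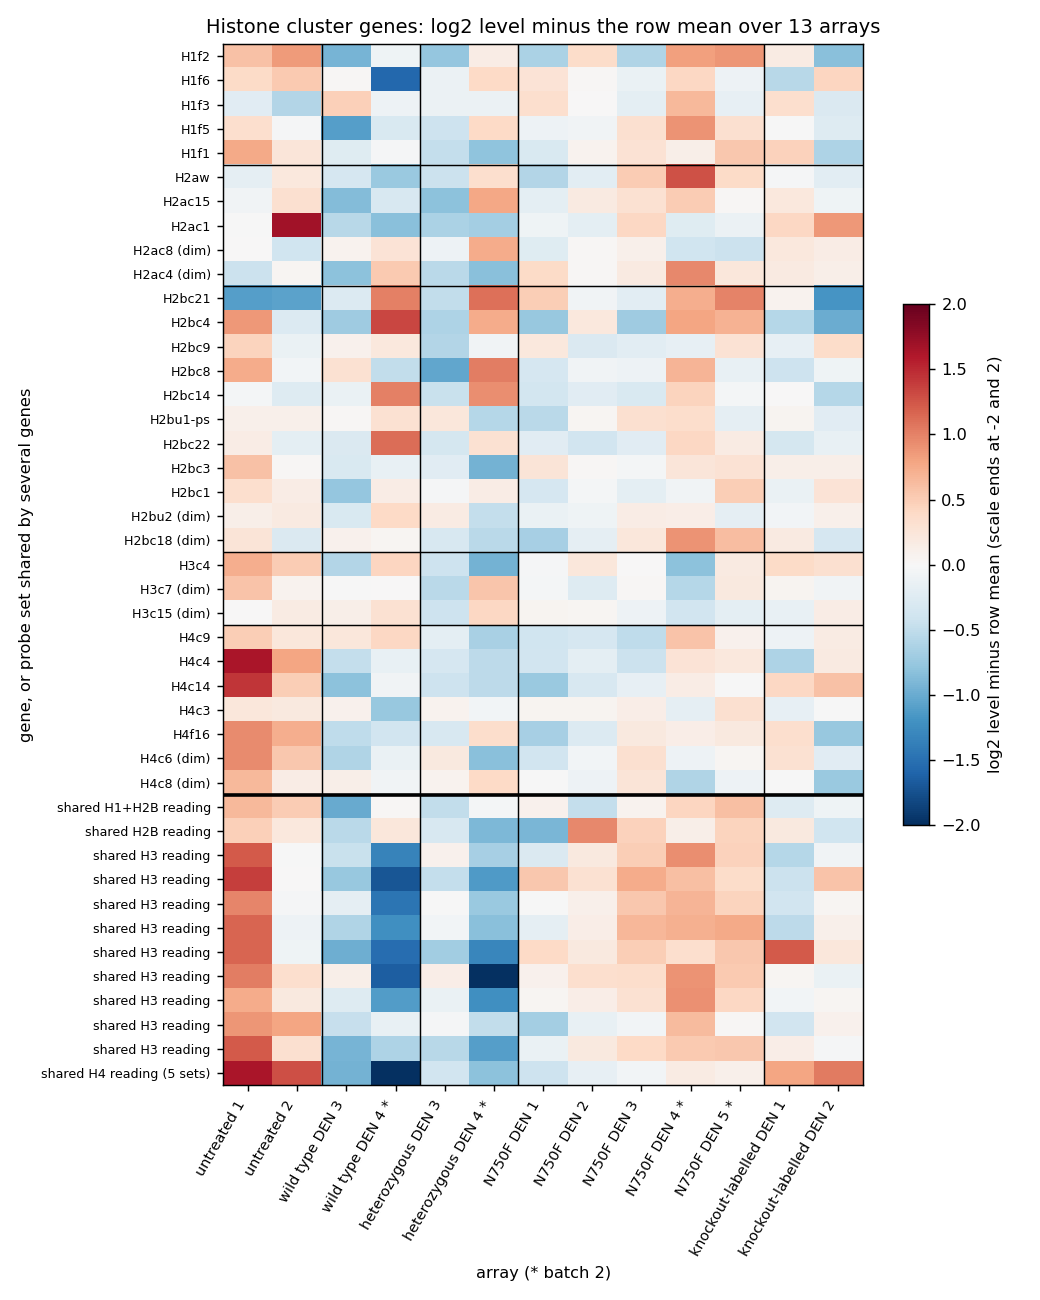
Each row is 1 of the 31 histone cluster genes with a probe set of its own, or below the thick line a shared reading, and each column an array. Colour gives the log2 level minus the row's mean over the 13 arrays, an asterisk marks batch 2, and genes left out of the tests are named dim. The shared H4 row is red in both untreated arrays and blue in wild type DEN array 4.

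The next comparisons asked whether Rb1 genotypes differed after DEN. Of the mitosis genes 28 of 35 rose in N750F liver against wild type and 30 against heterozygous liver, and of the DNA replication genes 9 and 10 of 30 rose. Among histone genes with their own probe sets a linker histone was higher. Against wild type with DEN 1 of 23 members rose and none fell, where 1.42% of tested genes were called and 1.13% rose. The median change of the members was 0.27, with 15 above 0, beside -0.01 over all genes. The member was H1f5 (formerly Hist1h1b, probe set 10408081), a replication-dependent linker histone. It read 6.46 and 6.10 untreated, 5.02 and 5.81 in wild type with DEN, 5.71 and 6.52 in heterozygous, 6.02, 6.05, 6.44, 7.03 and 6.44 in N750F and 6.12 and 5.87 in knockout-labelled liver. Every N750F array was above both wild type DEN arrays, but the heterozygous, knockout-labelled and untreated arrays overlapped N750F. Its log2 change was 1.05 ± 0.23 (SE, limma adjusted p = 0.0376), and within batches it was 1.15 in batch 1 and 0.92 in batch 2. The call was lost when any of 10 arrays was left out, the exceptions being N750F array 5 and both knockout-labelled arrays, with limma adjusted p of 0.404 without wild type array 4 and 0.127 without wild type array 3.

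The shared H4 reading was higher in N750F than in wild type as well. All 5 of its sets rose by 1.43 to 1.55 on the log2 scale (limma adjusted p 0.0469 to 0.0489), against 0.574% of probe sets called. All 16 shared probe sets were above 0, with a median of 1.28, and the 9 H3 sets had a median of 1.15 and no call. The 16 are not separate genes: 5 are the single H4 reading and the 9 H3 sets list the same 12 genes. Within batch 1 the median of the 16 was 0.73 and within batch 2 it was 2.03, and wild type array 4, in batch 2, was the lowest array of the H4 reading. Without wild type array 4 none of the 16 was called, nor without either heterozygous array or N750F array 2, 3, 4 or 5, and without either untreated array 2 were called.

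Against heterozygous liver N750F had 0 of 23 members called in limma, with 1.64% of genes called and 2 members at an unadjusted p under 0.05. The 2 were H2bc3, at 6.01 and 5.29 in heterozygous and 6.19 to 6.53 in N750F liver, and H1f1, at 5.54 and 5.20 against 5.71 to 6.54. Both had every N750F array above the heterozygous ones, with limma adjusted p of 0.212 and 0.306. No shared set was called here either (0.866% of probe sets were), with a median log2 change of 0.67 and 7 sets at an unadjusted p under 0.05. H2ac1 and H2bc3 were the 2 of 23 members for which all N750F arrays lay above all 4 wild type and heterozygous DEN arrays, where 3.38% of tested genes did. Of the 16 tested shared probe sets 5 did so, against 2.7% of probe sets. All 5 were H3 sets that list the same 12 genes, so they are not 5 separate genes.

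The knockout-labelled arrays had few calls of any kind. Against wild type with DEN 0 of 23 members passed in limma, with 0.0468% of genes called, a median of 0.26 and 4 members at an unadjusted p under 0.05. H4c14 was foremost among them, at 1.15 ± 0.34 (SE, limma adjusted p = 0.324), with both knockout-labelled arrays above both wild type arrays. The shared H4 sets lay 2.35 to 2.47 above wild type with limma adjusted p from 0.052 to 0.0612, just past the threshold, where 0.0262% of probe sets were called. Without wild type array 3, 5 shared sets were called. Against heterozygous liver 0 of 23 members were called in limma (0.301% of genes were), with 4 at an unadjusted p under 0.05, and no shared set (0.0712% were). N750F against knockout-labelled gave no call in limma among the members or any of the tested genes, a share of 0%. There 1 member, H4c14, had an unadjusted p under 0.05, lower in N750F by a log2 difference of -0.88. Heterozygous against wild type with DEN gave 0 of 23 members in limma, with 2 at an unadjusted p under 0.05 (H1f5 and H4c9), a median of -0.07 and 0.00669% of genes called.

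The remaining comparisons set the other DEN groups against the same 2 untreated arrays, so they share those arrays with the first comparison and with each other, and genotype changes together with treatment. H4c4 and H4c14 fell in N750F liver, by -1.46 ± 0.29 and -1.34 ± 0.28 (SE, limma adjusted p = 0.0175 and 0.0199), and no other member of the 23 was called, against 6.21% of genes called and 2.34% that fell. In heterozygous liver the same genes fell, by -1.82 ± 0.35 and -1.64 ± 0.34 (SE, limma adjusted p = 0.0253 and 0.034), against 1.4% of genes called and 0.729% that fell. In knockout-labelled liver 0 of 23 members were called in limma, 4 had an unadjusted p under 0.05, and 0.0869% of genes were called. H4c4 stood there at -1.44 ± 0.33 (SE, limma adjusted p = 0.149) and H4c14 at -0.46. The shared H4 sets fell in N750F by -1.50 to -1.42 and in heterozygous liver by -2.04 to -1.92, with all 5 called in each (3.98% and 0.78% of probe sets), and 1 H3 set fell in heterozygous liver (-1.68 ± 0.35, SE, limma adjusted p = 0.0474). In knockout-labelled liver their median was -0.57, none was called, and 0.0487% of probe sets were. Without untreated array 1 neither H4c4 nor H4c14 was called in N750F (limma adjusted p = 0.278 and 0.319), and without N750F array 3 H4c14 alone was. In heterozygous liver neither was called without untreated array 1 or either heterozygous array (limma adjusted p 0.0626 to 0.326), and H4c14 was also lost without wild type DEN array 3 or 4 or N750F array 2 or 5. No shared set was called in heterozygous liver without either untreated or either heterozygous array, nor in N750F liver without either untreated array or N750F array 2 or 3.

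**Figure D3:**
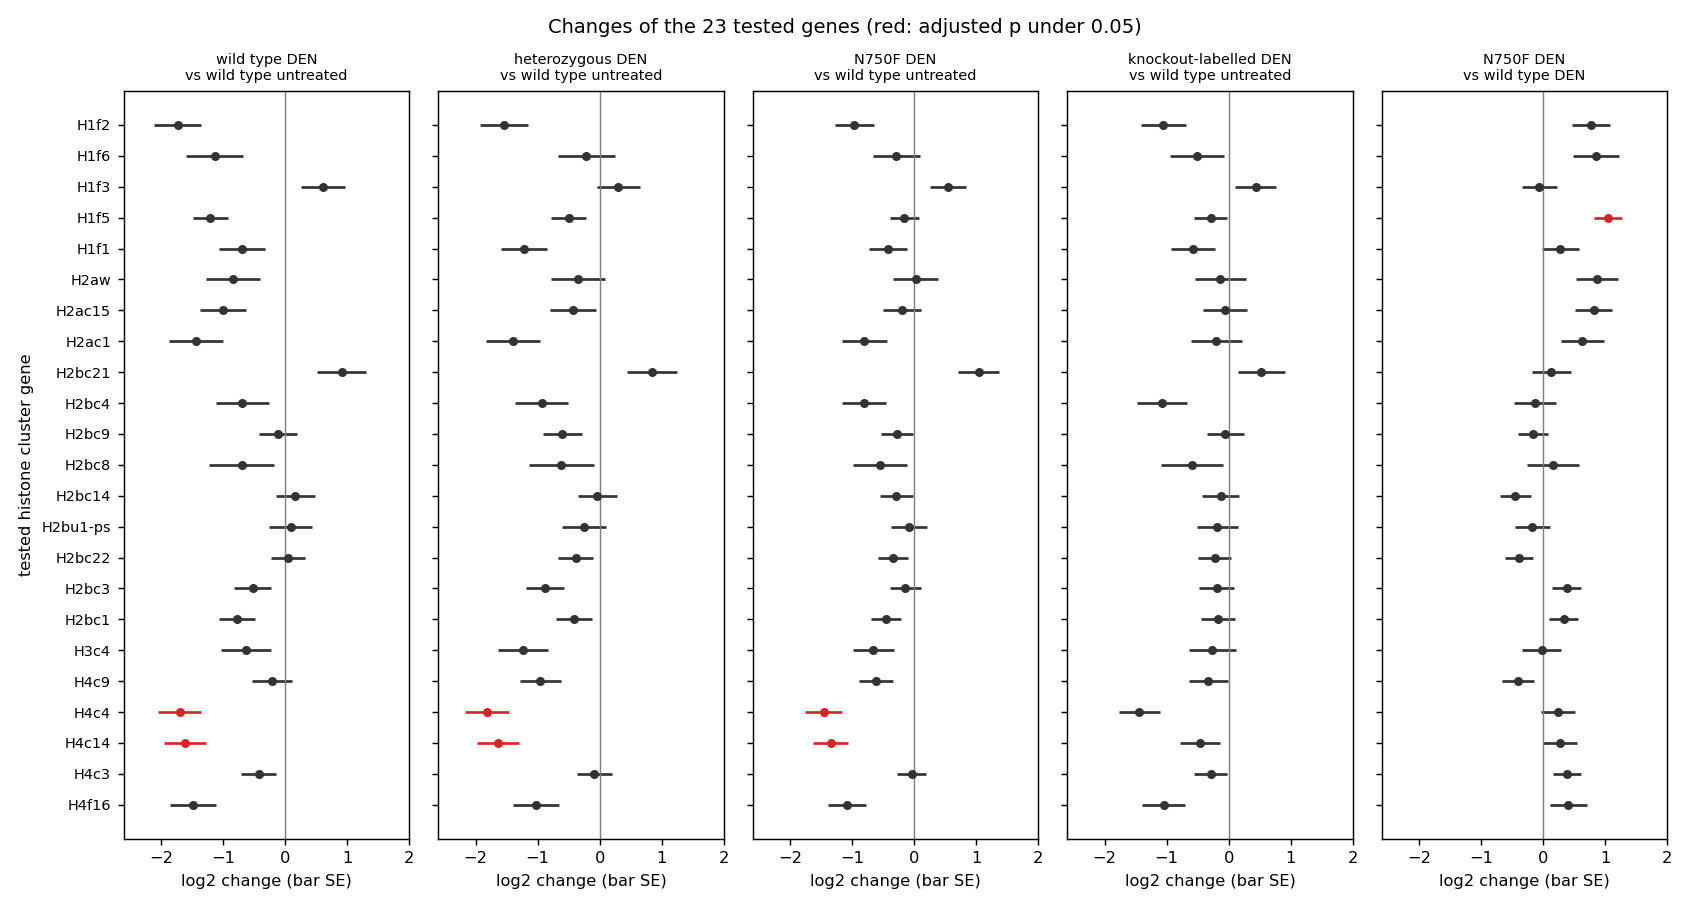
Log2 change (horizontal axis, bar SE) of each of the 23 tested histone genes (vertical axis) in 5 comparisons, with genes of an adjusted p under 0.05 in red. H4c4 and H4c14 are red against untreated in wild type, heterozygous and N750F liver, and H1f5 is red in N750F against wild type.

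Cycling state was read from 35 tested mitosis genes, whose mean level in an array served as its measure. That mean was 7.41 and 7.26 untreated, 6.19 and 6.17 in wild type with DEN and 5.85 and 5.75 in heterozygous liver. It was 7.97, 8.23, 8.15, 8.31 and 8.40 in N750F and 8.60 and 6.86 in knockout-labelled liver. N750F and knockout-labelled array 1 were high, untreated and knockout-labelled array 2 were in between, and wild type and heterozygous DEN were low without overlap. Each gene's level was then fitted on this mean with batch as a term. A slope of 1 means that the gene changed as much as the mitosis genes.

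No histone cluster gene with its own probe set had a called slope, while most of the DNA replication genes did, and the ranges of the slopes overlapped. Of the 9 replication-independent histone variants, which are not members, 3 were called with slopes above 0 and 1 with a slope below 0. No member was called in limma (0 of 23, with 5 at an unadjusted p under 0.05), against 2.35% of all genes. The median slope was 0.09, between -0.10 and 0.33, with 21 of 23 above 0, beside a median of -0.01 over all genes. Of 30 DNA replication genes 22 were called, all with slopes above 0, and the 30 ran from 0.13 to 1.13 with a median of 0.48. Inside most groups the mitosis mean varied little, so slopes of either list can rest on differences between groups. The difference between the lists was not tested. Rrm1, a subunit of ribonucleotide reductase, had 0.82 ± 0.11 (SE, limma adjusted p = 0.000375), and Prim1, of the primase, had 0.88 ± 0.13 (SE, limma adjusted p = 0.000669). H1f2 had the highest slope among the members, 0.33 ± 0.13 (SE, limma adjusted p = 0.277), followed by H1f1 at 0.30 and H1f5 at 0.26. H4c4 had 0.07 and H4c14 0.15. With the mean of the DNA replication genes as the measure no member was called either (2.95% of genes were), nor without heterozygous arrays 3 and 4, the 2 arrays farthest from the median of the mitosis mean.

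**Figure D4:**
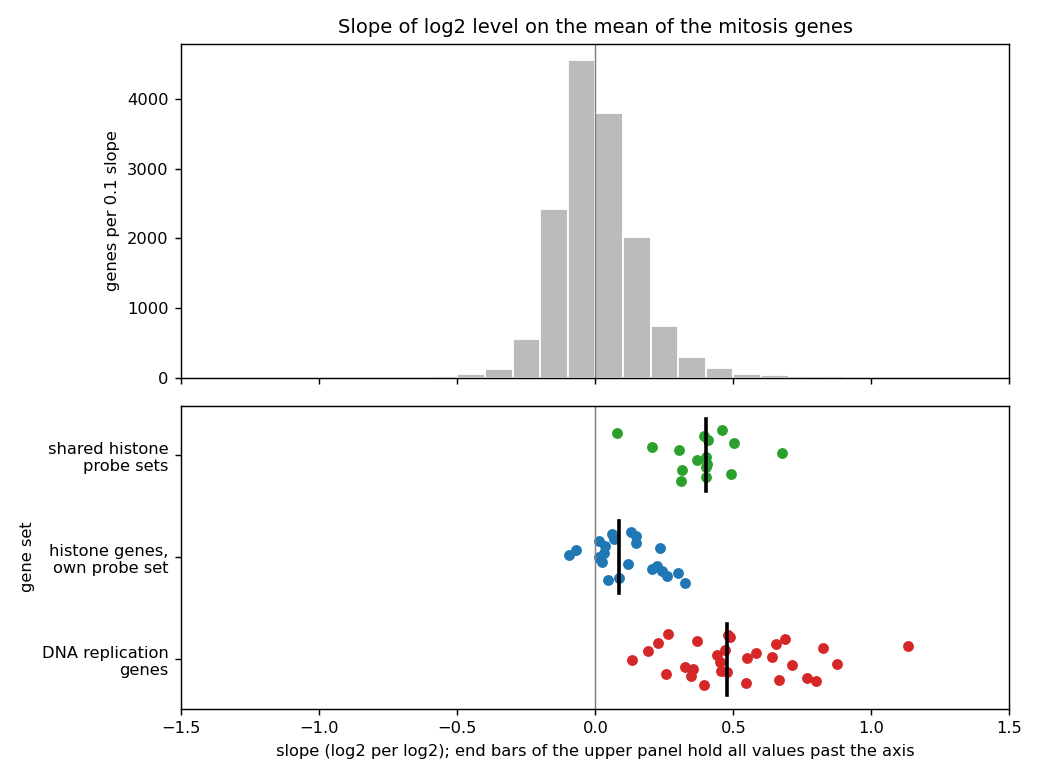
The upper panel counts tested genes by slope of the log2 level on the mean of the mitosis genes. The lower panel shows each shared histone probe set, each tested histone cluster gene with its own probe set and each DNA replication gene, with bars at the medians of 0.4, 0.09 and 0.48.

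Shared probe sets had steeper slopes. All 16 were above 0 with a median of 0.40, but 5 of them are the single H4 reading, each at 0.40 or 0.41 without a call. The 9 H3 sets, which list the same 12 genes, ran from 0.08 to 0.68. Of the 16, 1, the H3 set described above, was called at 0.68 ± 0.11 (SE, limma adjusted p = 0.00244), against 1.77% of probe sets. With the groups as terms none of the 16 was called and the median was 0.01, so the slopes rest on differences between groups. That fit could hardly show a relation within groups, because the mitosis mean varied little inside most of them. Its SD was 0.015 to 0.166 in 4 groups and 1.23 in the knockout-labelled pair. With the 9 arrays of batch 1 alone none was called. The H4 reading did not follow the order of the mitosis genes. It was highest in untreated liver, where the mitosis mean was intermediate. Knockout-labelled array 2 read higher than knockout-labelled array 1 in H4 (9.96 against 9.71) and lower in mitosis genes (6.86 against 8.60).

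**Figure D5:**
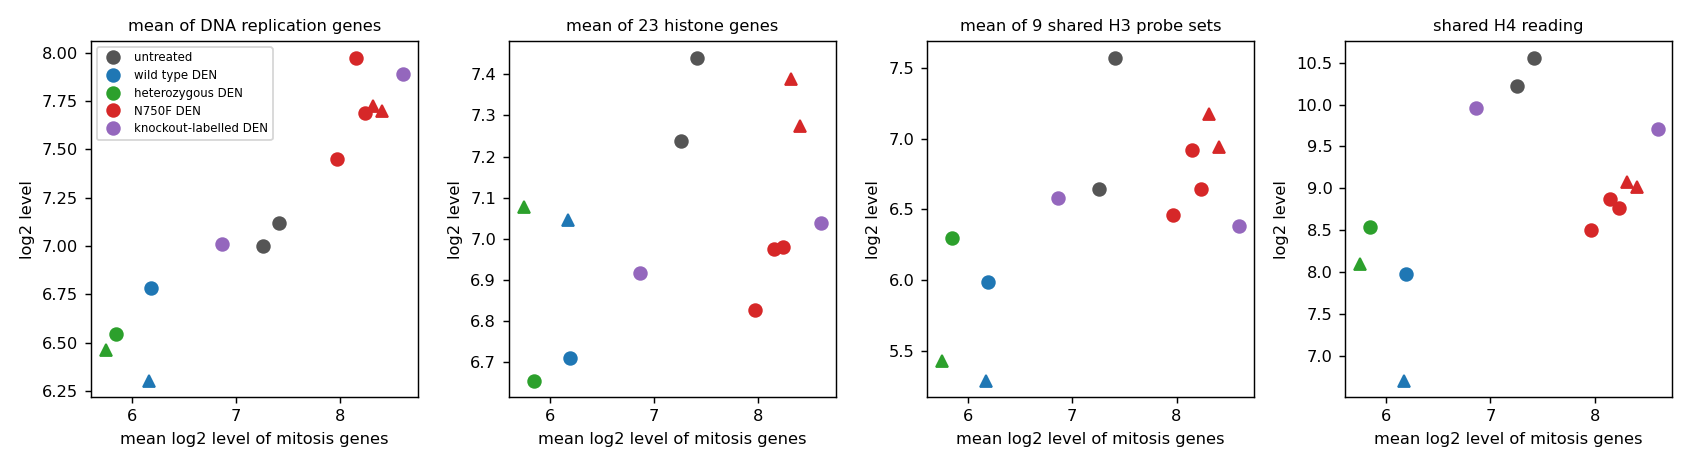
Each point is an array, with the mean log2 level of 35 mitosis genes on the horizontal axis and on the vertical axis, panel by panel, the mean of the DNA replication genes, of the 23 histone genes, of 9 shared H3 probe sets and the shared H4 reading (circles batch 1, triangles batch 2). Untreated arrays lie above the N750F arrays in the H4 panel and below them in the replication panel.

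Genes that act on histone transcripts and proteins were set beside them, from lists of pathway genes. In N750F against wild type DEN 28 of 35 mitosis genes and 9 of 30 DNA replication genes rose and none fell, with medians of 2.04 and 1.03. Over all tested genes 1.13% rose. None of 14 tested genes for histone transcript supply and processing was called, with a median of 0.28, none of 11 histone chaperone genes (median 0.33) and none of 9 replication-independent histone variants (median 0.14). Slbp, which binds the stem-loop, read 8.95 and 8.26 untreated, 7.90 and 7.92 in wild type and 7.64 and 8.30 in heterozygous liver. It read 8.61, 8.15, 8.32, 8.67 and 8.76 in N750F and 8.84 and 8.67 in knockout-labelled liver. Slbp was thus lowest in wild type and heterozygous DEN arrays apart from heterozygous array 4. Its log2 change was -0.87 ± 0.29 with DEN in wild type and 0.63 ± 0.23 in N750F against wild type (SE, limma adjusted p = 0.203 and 0.238). H2ax, the variant that is phosphorylated at DNA breaks, stood at -1.99 ± 0.54 with DEN in wild type (SE, limma adjusted p = 0.113). Against heterozygous liver 1 of 14 supply genes (Ccne2, a cyclin of the G1 to S transition, 1.40 ± 0.30) and 2 of 11 chaperone genes (Chaf1a, of the replication-coupled assembly factor, 1.84 ± 0.27, and the histone acetyltransferase Hat1, 1.13 ± 0.24) rose in N750F (SE, limma adjusted p = 0.0291, 0.00352 and 0.0258). In that comparison 1.64% of all tested genes were called.

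Macrophage markers went the way of the H4 reading with DEN in wild type and in N750F against wild type liver. The mean of 12 macrophage markers, all 12 tested, was 8.07 to 8.48 in untreated, 7.09 to 7.18 in wild type DEN, 7.35 to 7.41 in heterozygous, 7.68 to 8.22 in N750F and 7.61 to 8.13 in knockout-labelled liver. With DEN in wild type 3 of the 12 fell, with a median of -1.21, and in N750F against wild type 2 rose, with a median of 0.95. Of all tested genes 0.388% fell in the first and 1.13% rose in the second of these comparisons. In N750F against knockout-labelled liver none of the 12 was called and their median was -0.02. The 5 shared H4 sets were not called there either, at -0.93 to -0.85, with both knockout-labelled arrays above every N750F array in the H4 reading. The mean of 8 endothelial markers was 8.38 to 8.53 untreated and 7.68 to 8.08 in wild type with DEN, and none was called. Means of 6 tested neutrophil and myeloid precursor markers were 6.92 untreated, 6.71 knockout-labelled, 6.66 N750F, 6.56 heterozygous and 6.36 wild type DEN. That is the order of the H4 reading, though N750F arrays, at 6.38 to 7.07, overlapped other groups. Those of 6 tested erythroid markers were 7.62, 7.65, 7.53, 7.38 and 7.22 in that order of groups. With DEN in wild type 1 of the 6 myeloid markers fell and no erythroid marker was called. The part of these cells in the histone levels was not tested, and in bulk liver RNA fewer cells of a type and less RNA per cell cannot be told apart. The 3 members known from testis (H1f6, H2ac1 and H2bc1) had a mean of 6.42 and 6.96 untreated and 5.75 and 5.43 in wild type with DEN, and none was called.

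The 8 members left out of the tests were H2ac8, H2ac4, H2bu2, H2bc18, H3c7, H3c15, H4c6 and H4c8. H4c6 read 6.21 and 5.80 in the untreated and 4.43 to 5.58 in the DEN arrays. The other 7 had means of 4.63 to 5.52 over the 13 arrays, below the filter, with single arrays between 4.21 and 6.26, and were not tested.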

How the data were processed

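Per the labels' protocols, RNA from frozen livers went through WT-Ovation Pico amplification before hybridisation, 1 sample to each Affymetrix array. The authors deposited linear intensity values of 35556 probe sets for each of 13 arrays. RMA and Affymetrix Expression Console 1.1 stand in the submitters' processing notes without their roles, and the genome build is not given in the sources used here. Median intensity ran from 76.87 to 82.99 in batch 1 and from 48.2 to 73.3 in batch 2, and the number of arrays limits the precision.

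Here intensities were quantile-normalized, 16 was added to each and log2 taken, so changes of dim genes are understated. Genes were named from probe sets with 1 symbol, the highest mean per gene (19938 genes), with older symbols matched through the RefSeq table of GRCm38.p6. A filter at the 25th percentile left 14953. A single limma 3.58.1 model in R 4.3.3 held the 5 groups and batch, with 7 residual degrees of freedom, and p-values were adjusted by Benjamini-Hochberg over all genes tested within each comparison (threshold 0.05). The slope model held the mitosis mean and batch. Shared histone probe sets were fitted over 26667 probe sets. The scripts were tested on simulated data. Alternatives were other scalings, offsets, filters, batch treatment and left-out arrays.

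Per-array values are given for the members of highest mean in each class, the members called, and the 3 of smallest p where none was called, and other genes come from lists, those of smallest p in N750F against wild type. H2bc3, H2bc9, H4c3 and H4c6 were otherwise chosen after their values were seen. The members and gene lists were chosen with earlier results of these data known.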

Additional observations from a re-analysis of the deposited data

Results flagged for a closer look

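Among the 5 N750F arrays, the highest or lowest array of a gene can stand apart from the other 4 by more than 0.71 of the group's range, which chance gives in about 1 of 20 groups. The 31 histone genes and the means of lists and classes made 41 checks, of which 3 met this, beside 6.6% of all tested genes. H2ac1 read 6.605 in N750F array 3, above the other 4 arrays. H2bc8 read 7.319 in N750F array 4, also above the others. H3c4 read 6.939 in N750F array 4, below the others.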

How the results depend on the processing

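Apart from left-out arrays, the median changes of the members kept their sign in every setting tried for the comparisons with untreated liver and for N750F against wild type and heterozygous liver. Counts of members called changed in the 4 comparisons below and stayed at 0 in the other 6. Of the members, the 2 calls of DEN in wild type became 0 without further scaling, with arrays scaled to 1 median, with an offset of 1, with no filter on dim genes, with no batch term, with batch 1 arrays only and with a Y-linked covariate, and 4 without both knockout-labelled arrays. The 2 of heterozygous against untreated became 0 without further scaling, with arrays scaled to 1 median, no batch term, batch 1 only and a Y-linked covariate, and 1 with an offset of 1. The highest count of any setting there was 3. The 1 of N750F against wild type became 0 with an offset of 50, no batch term, batch 1 only and a Y-linked covariate. The 2 of N750F against untreated became 0 with no batch term, 1 in batch 1 only, 4 with a trended robust prior and 5 without both knockout-labelled arrays.

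The fits of shared probe sets were chosen after seeing the data. Of these sets, the 5 called in N750F against wild type became 0 without further scaling, with an offset of 1, no filter, no batch term, batch 1 only and a Y-linked covariate. The 5 of N750F against untreated became 0 without further scaling or with median scaling, and 2 with an offset of 1 or no batch term. The 6 of heterozygous against untreated became 0 without further scaling, with median scaling, an offset of 1, batch 1 only or a Y-linked covariate, and 2 with no filter. Knockout-labelled against wild type went from 0 to 5 with an offset of 50, no batch term or a trended robust prior. The 1 slope call became 2 without further scaling or without both knockout-labelled arrays, and 0 in batch 1 only or with groups as terms. The cause was not tested.

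With the replicate block in place of the batch term, members and shared probe sets gave 0 calls in each of the 4 comparisons that had any. Whether the numbers pair the samples was not settled. Deviations of same-numbered arrays correlated between -0.131 and 0.133 for numbers 1 and 2, and between 0.27 and 0.452 for numbers 3 and 4. For 3 and 4 the number coincides with batch in wild type, heterozygous and N750F liver, so pairing and batch cannot be told apart.

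Leaving out each array in turn gave 0 to 4 members for DEN in wild type, 0 to 1 for N750F against wild type, 0 to 5 for N750F and 0 to 3 for heterozygous against untreated, and 0 to 0 in the other comparisons and for the slope. For shared probe sets it gave 0 to 6 for DEN in wild type, 0 to 7 for N750F, 0 to 5 for knockout-labelled and 0 to 2 for heterozygous against wild type, 0 to 6 for N750F and for heterozygous against untreated, and 1 to 2 for the slope. Where a group is left with 1 array it is assumed to vary like the others.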
